A study of Mus musculus with 12 samples.

Results

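The miR-99/100 and miR-125 families were followed across liver development in C57Bl/6 mice. Their members were all rows of the expression table named miR-99a, miR-99b or miR-100, or beginning with miR-125a or miR-125b, which gave 6 probes of the 355 in the table: mmu-miR-99a, mmu-miR-99b, mmu-miR-100, mmu-miR-125a-5p, mmu-miR-125a-3p and mmu-miR-125b-5p, written below without the species prefix. The study measured microRNAs (miRNAs) in total liver RNA with the nanoString nCounter mouse miRNA assay, in which barcoded probes are counted directly after hybridisation. There were 12 livers in 4 groups of 3, all labelled C57Bl/6 with no treatment or allele named: embryonic day 15.5 (e15.5, mixed sex), and males of 2 weeks, 3 weeks and 7 weeks of age. Since only the postnatal livers are all male, a contrast with e15.5 joins age and sex, which cannot be told apart there. Pooling of embryos at e15.5 is not stated. The study concerned miR-122 and postnatal polyploidization, the rise in hepatocyte chromosome sets after birth, so the sampled ages bracket the onset of that process.

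A miRNA guides the silencing complex to messenger RNAs that pair with its seed, bases 2 to 8 from the 5′ end, so miRNAs with the same seed are grouped as a family. The miR-125 family is the mammalian counterpart of lin-4 of the worm Caenorhabditis elegans and is known to repress Lin28, an inhibitor of let-7 maturation. The miR-99/100 family is known to repress components of the IGF1 receptor and mTOR growth pathway. In mammals a member of each family lies beside a let-7 gene in clusters that arose by duplication, so a seed family is spread over several loci and each locus carries several seeds.

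The mature sequences are shown, as RefSeq gives them on GRCm38.p6, because the comparisons below turn on which members share a seed and which share a locus. Capitals mark the seed, and the table's names without an arm (miR-99a, miR-99b, miR-100, miR-10a and the let-7 names) were taken as the 5p arm. All 6 members were matched.
miR-99a: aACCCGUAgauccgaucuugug
miR-100: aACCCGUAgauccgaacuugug
miR-99b: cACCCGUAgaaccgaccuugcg
miR-125b-5p: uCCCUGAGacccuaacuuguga
miR-125a-5p: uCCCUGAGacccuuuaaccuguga
miR-125a-3p: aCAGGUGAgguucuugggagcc
miR-10a: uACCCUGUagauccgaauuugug

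The seed ACCCGUA was found in 3 of 1679 mature mouse miRNA names in the RefSeq table (0.179%), which are the 3 members of the miR-99/100 family. With positions counted from 1 at the 5′ end, miR-99a and miR-100 differ at 1 base (U16A), and miR-99a and miR-99b at 4 (A1C, U11A, U16C and U21C). The seed CCCUGAG was found in 5 names (0.298%), of which miR-125a-5p and miR-125b-5p were measured here. These 2 share their first 13 bases. The miR-125a-3p arm has a seed of its own, CAGGUGA, found in no other name of the table. The relative miR-10a has the different seed ACCCUGU.

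The members come from 3 clusters. On chromosome 17 (GRCm38.p6, 17830188 to 17830879, plus strand) Mir99b, Mirlet7e and Mir125a lie within 692 bases, inside the bounds of the protein-coding gene Spaca6. On chromosome 16 (77598936 to 77646343) Mir99a and Mirlet7c-1 lie together and Mir125b-2 farther on, over 47.4 kb. On chromosome 9 (41531425 to 41582002) Mir100, Mirlet7a-2 and Mir125b-1 span 50.6 kb inside the long noncoding RNA gene Mir100hg. The miR-125b-5p sequence is the same from its genes on chromosomes 9 and 16, so its probe sums both loci. The let-7a and let-7c probes likewise sum a clustered gene and a gene elsewhere, on chromosomes 13 and 15, whereas miR-99a, miR-100, miR-99b, let-7e and both miR-125a arms each come from 1 listed locus.

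The deposited values are log2 signals whose lowest value, -9.97, stands for a linear value of 0.001 and was read as at or below background (here the floor). The total linear signal lay between 148505 and 172057 at e15.5, between 478381 and 618776 at 2 and 3 weeks, and between 236866 and 267914 at 7 weeks. Between 44 and 196 of 355 probes were at the floor in a liver. The liver miRNA miR-122 was the brightest probe in all 9 postnatal livers and the second brightest in all 3 e15.5 livers. Because the signal of bright probes moved together between ages, each change is also given after centring, that is, after each liver was shifted so that the mean log2 value of the 100 brightest probes was equal in all livers. That shift was 1.75 for 2 weeks against e15.5, 1.39 for 3 weeks, 0.27 for 7 weeks, and -1.48 for 7 against 2 weeks. Floor values were shifted too, so a probe at the floor at 2 ages takes on a change between them after centring. The shares of all probes given for centred values include such probes. For 3 weeks against e15.5, 116 of 355 probes were called lower as deposited and 177 after centring. The submitters' background subtraction and scaling are not given in the sources used.

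The level of miR-99a, from chromosome 16, was 7.93, 7.83 and 7.89 (deposited log2 values) in the 3 e15.5 livers, 10.59, 10.27 and 10.17 at 2 weeks, 9.82, 9.63 and 9.74 at 3 weeks, and 8.91, 8.98 and 9.07 at 7 weeks. No 2 ages overlapped, in the order 2 weeks, 3 weeks, 7 weeks and e15.5 from high to low. The level of miR-125b-5p, a miRNA known to restrain p53 and to act in blood stem cells, was 9.95, 9.40 and 9.16 at e15.5, 12.41, 11.71 and 11.44 at 2 weeks, 11.36, 11.38 and 11.84 at 3 weeks, and 10.55, 10.65 and 10.80 at 7 weeks. Its 2-week and 3-week livers overlapped, and both groups lay above the 7-week livers, which lay above e15.5.

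The level of miR-100, from chromosome 9, was -0.81, or 0.57 linear units, in e15.5 mouse 1 and the floor value in e15.5 mice 2 and 3. It was 8.70, 8.56 and 8.17 at 2 weeks, 8.27, 8.20 and 8.33 at 3 weeks, and 6.84, 6.47 and 7.03 at 7 weeks. It was thus far above the floor in 9 of 9 postnatal livers and at or near background in all e15.5 livers, so no fold against e15.5 is given. In the same e15.5 livers miR-99a, which differs from miR-100 by U16A, stood between 7.83 and 7.93.

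The level of miR-99b, from chromosome 17, was 6.99, 7.70 and 7.24 at e15.5, 8.88, 8.83 and 8.71 at 2 weeks, 7.74, 7.52 and 8.08 at 3 weeks, and 6.11, 6.22 and 5.75 at 7 weeks. Its 7-week livers lay below all others, and its 3-week livers overlapped with e15.5. The level of miR-125a-5p, the other 5p miRNA of that cluster, was 10.34, 10.51 and 9.89 at e15.5, 12.44, 12.18 and 11.98 at 2 weeks, 11.00, 10.86 and 11.13 at 3 weeks, and 9.60, 9.03 and 9.57 at 7 weeks. No 2 ages overlapped, and 7 weeks was again the lowest. The opposite arm miR-125a-3p was dim, at 4.67 and 5.18 in 2 e15.5 livers and the floor in the third, at 5.98, 5.86 and 5.75 at 2 weeks, at 5.44 and 6.69 in 2 livers at 3 weeks and the floor in the other, and at 6.95, 7.60 and 6.50 at 7 weeks. Its 7-week livers lay above its 2-week livers. Levels of different probes are not compared here, since probes can differ in their yield.

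**Figure D1:**
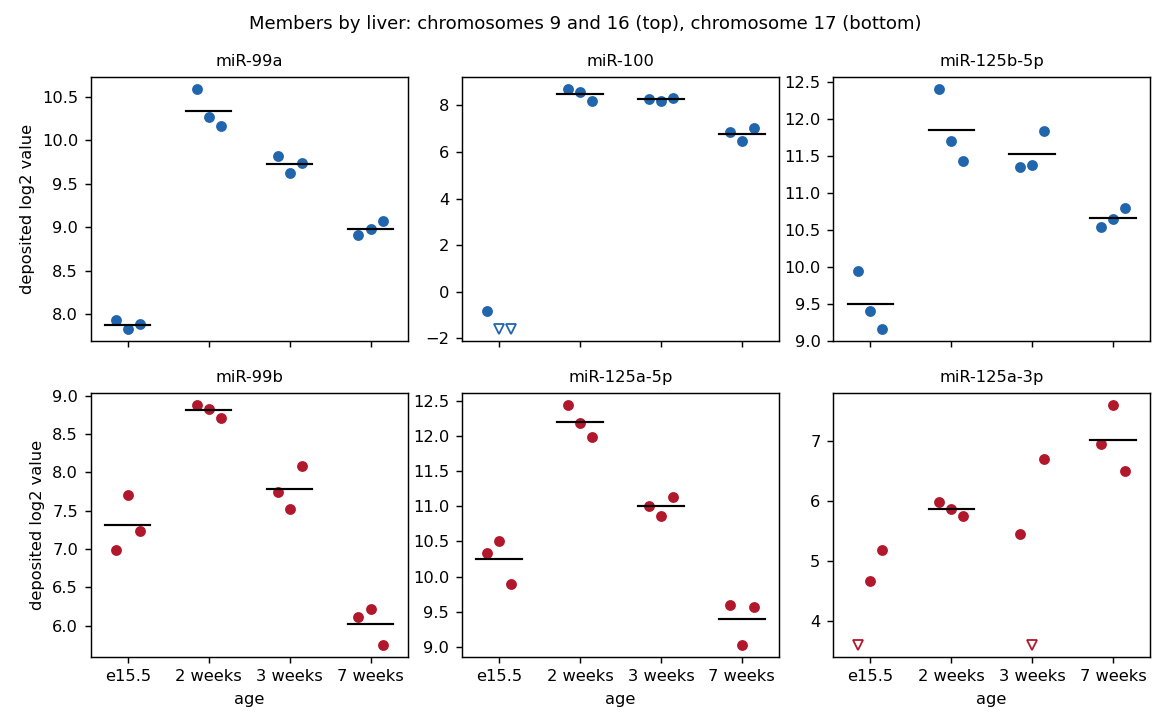
Deposited log2 value (y axis) of each member in each liver (points) at the 4 ages (x axis), with the mean of 3 livers as a line where all 3 were above the floor and open triangles, placed at an arbitrary height, for livers at the floor. The 7-week livers lie above e15.5 for the 3 members of chromosomes 9 and 16 in the upper row, and below e15.5 for miR-99b and miR-125a-5p of chromosome 17 in the lower row.

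Over the 4 ages, 5 of the 6 members differed (limma F test, adjusted p between 1.1e-07 and 0.00013), and miR-125a-3p, with 2 livers at the floor, was not called (adjusted p = 0.44). Among all 355 probes 54.4% were called. Of the 114 probes above the floor in every liver, fitted alone, 106 were called. A call over the ages was thus common among measured probes. Over the 3 postnatal ages alone the same 5 were called, against 42.8% of all probes. After centring these 5 members were called over the 4 ages, miR-125b-5p with the highest adjusted p of them (0.033), against 61.1% of all probes. The call of miR-125b-5p was lost on centring instead on the median of probes measured in all livers (F test, adjusted p = 0.051).

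From the fetal liver at e15.5 to 2 weeks, 5 of 6 members rose and none fell, where 28.2% of all probes rose. The median change of the 6 was 2.40 on the log2 scale, against -1.34 over all probes, many of which were at the floor. When the 114 probes above the floor in all 12 livers were fitted alone, 79 rose, with a median of 1.96. The fold was 5.51 for miR-99a (log2 change 2.46 ± 0.12, SE, limma adjusted p = 3.8e-08), 5.09 for miR-125b-5p (adjusted p = 3.3e-05), 3.88 for miR-125a-5p (adjusted p = 1.5e-05) and 2.82 for miR-99b (adjusted p = 0.00022). The fifth, miR-100, rose from the floor (adjusted p = 7.9e-05). After centring 3 rose, against 19.2% of all probes: miR-100, miR-99a (0.72 ± 0.11, adjusted p = 0.00033) and miR-125b-5p (0.60 ± 0.23, adjusted p = 0.045). The call of miR-125b-5p did not hold on leaving out e15.5 mouse 2 or 3, 2-week mouse 1 or 2, any 3-week mouse, or 7-week mouse 1 or 2, with adjusted p up to 0.15. On that scale the values from chromosome 17 were 0.21 for miR-125a-5p (adjusted p = 0.32) and -0.25 for miR-99b (adjusted p = 0.22), neither past the threshold, though miR-99b was called without e15.5 mouse 1 (adjusted p = 0.05 after rounding, below the threshold). In bulk tissue, fewer cells of a type and less RNA per cell cannot be told apart. Over the same step the erythroid list (3 of 3 in the table) went from 7.21 to 10.5% of the total signal to 1.45 to 2.22%, the leukocyte list (8 probes) from 4.10 to 5.01% to 0.622 to 0.749%, and the hepatocyte list (10 probes, of which miR-101a, miR-802 and miR-193 did not exceed the floor in any e15.5 liver) from 9.05 to 11.5% to 38.2 to 45.4%. Not every probe moved as the share of its list did. In the leukocyte list 3 probes were called higher, 2 lower and 3 not called as deposited. After centring 3 leukocyte probes were higher and 4 lower. Its miR-342-3p was above the floor in no e15.5 liver. As deposited, 1 erythroid probe was called higher and 2 lower, and all 10 hepatocyte probes were called higher. All 3 erythroid probes were called lower after centring, and all 10 hepatocyte probes higher. The part of these cell types in the members' changes was not tested.

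At 3 weeks against e15.5, 4 members were higher and none lower, against 25.6% of all probes higher. The median change was 1.31 (-3.73 over all probes, many of which were at the floor). Of the 114 probes above the floor in every liver, fitted alone, 73 were higher and 24 lower, with a median of 1.65. The fold was 4.06 for miR-125b-5p (adjusted p = 9.2e-05), 3.61 for miR-99a (adjusted p = 3.0e-07) and 1.68 for miR-125a-5p (adjusted p = 0.0097), and miR-100 again rose from the floor. For miR-99b the change was 0.47 ± 0.22 (adjusted p = 0.084). It was called without e15.5 mouse 2 (adjusted p = 0.021). After centring 3 members were higher (18.0% of all probes) and 2 lower (49.9%). The higher ones were miR-100, miR-99a (0.46 ± 0.11, adjusted p = 0.0044) and miR-125b-5p (0.63 ± 0.23, adjusted p = 0.038, a call lost on leaving out e15.5 mouse 2 or 3, 2-week mouse 2 or any 3-week mouse, up to 0.13). The lower ones were miR-99b (-0.92 ± 0.18, adjusted p = 0.0014) and miR-125a-5p, which turned from 0.75 to -0.64 ± 0.18 (adjusted p = 0.014).

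By 7 weeks miR-99b and miR-125a-5p lay below the fetal level and miR-99a, miR-125b-5p and miR-100 above it, as deposited and after centring. As deposited, 3 members were higher than at e15.5 (18.6% of all probes) and 2 lower (26.2%). The median change was 1.13 (-1.02 over all probes, many of which were at the floor). Of the 114 probes above the floor in every liver, fitted alone, 55 were higher and 32 lower, with a median of 0.41. The fold was 2.15 higher for miR-99a (log2 change 1.11 ± 0.12, adjusted p = 1.8e-05) and 2.23 higher for miR-125b-5p (1.16 ± 0.27, adjusted p = 0.0051), and miR-100 rose from the floor. In contrast miR-99b fell 2.44-fold (-1.29 ± 0.22, adjusted p = 0.00073) and miR-125a-5p fell 1.79-fold (-0.84 ± 0.20, adjusted p = 0.0062, but 0.055 when only these 2 ages were fitted). After centring the same 3 were higher (17.5% of all probes) and the same 2 lower (29.3%), with values of 0.84 for miR-99a, 0.89 for miR-125b-5p, -1.55 for miR-99b and -1.11 for miR-125a-5p. After quantile normalisation the fall of miR-99b was not called (-0.26, adjusted p = 0.38). The third member of chromosome 17, miR-125a-3p, had all 7-week livers above all e15.5 livers and was not called (adjusted p = 0.28), except after quantile normalisation (adjusted p = 0.014) and on log2(linear + 10), where its change was 2.46 (adjusted p = 0.024). Their cluster partners let-7c and let-7a were 4.12 and 1.62 higher than at e15.5 (adjusted p = 6.0e-07 and 7.8e-06), while let-7e, the partner on chromosome 17, was not called as deposited (-0.20 ± 0.11, adjusted p = 0.19) and fell after centring (-0.47 ± 0.08, adjusted p = 0.00067).

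Within the postnatal liver miR-99b and miR-125a-5p had fallen by 3 weeks, around weaning. As deposited 3 members fell and none rose, against 15.5% of all probes lower. The median over all members was -0.82 (-0.17 over all probes, many of which were at the floor). It includes miR-125a-3p at -5.14, which was at the floor in 3-week mouse 2. Of the 114 probes above the floor in every liver, fitted alone, 35 fell and 2 rose, with a median of -0.31. The members that fell were miR-125a-5p (-1.20 ± 0.20, adjusted p = 0.0018) and miR-99b (-1.02 ± 0.22, adjusted p = 0.0081). The third was miR-99a (-0.61 ± 0.12, adjusted p = 0.0042, but 0.071 with variances fitted without a trend). The changes of miR-125b-5p (-0.33, adjusted p = 0.61) and miR-100 (-0.21, adjusted p = 1) were within the spread, and both turned positive after centring (0.034 and 0.15, not called). After centring 2 members fell, against 10.1% of all probes: miR-125a-5p (-0.84 ± 0.18, adjusted p = 0.013, lost without 2-week mouse 2 or 3-week mouse 2, up to 0.054) and miR-99b (-0.66 ± 0.18, adjusted p = 0.034, lost without 2-week mouse 2 or 3, 3-week mouse 1 or 2, or 7-week mouse 1, up to 0.13). The centred value of miR-99a was -0.25 (adjusted p = 0.22). After quantile normalisation neither miR-99b (-0.55, adjusted p = 0.17) nor miR-99a (-0.25, adjusted p = 0.25) was called.

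Between 3 and 7 weeks 4 members fell as deposited and none rose, against 29.6% of all probes lower. The median over all members was -1.18 (0 over all probes, many of which were at the floor). Of the 114 probes above the floor in every liver, fitted alone, 84 fell and 3 rose, with a median of -1.09. The fall was 3.38-fold for miR-99b and 3.02-fold for miR-125a-5p (adjusted p = 9.3e-05 and 0.0001), and neither was called after quantile normalisation (-0.39 and -0.32, adjusted p = 0.26 and 0.3). It was smaller for miR-99a (-0.74 ± 0.12, adjusted p = 0.0005) and miR-125b-5p (-0.86 ± 0.27, adjusted p = 0.029, lost without 3-week mouse 3 or 7-week mouse 1 or 2, up to 0.11), and these falls turned positive after centring. On the centred scale 1 member was higher (17.7% of all probes), miR-99a (0.37 ± 0.11, adjusted p = 0.031, lost without 3-week mouse 2 or 3 or 7-week mouse 3, up to 0.10), and 1 lower (10.1%), miR-99b (-0.64 ± 0.18, adjusted p = 0.025, lost without 3-week mouse 1 or 3 or 7-week mouse 1 or 3, up to 0.088). The centred values of miR-125a-5p (-0.47, adjusted p = 0.089, called without 7-week mouse 3 at 0.035) and miR-125b-5p (0.26, adjusted p = 0.44) were not called.

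Across the span from 2 to 7 weeks miR-99b fell 6.88-fold (log2 change -2.78 ± 0.22, adjusted p = 1.9e-06) and miR-125a-5p fell 6.96-fold (-2.80 ± 0.20, adjusted p = 9.4e-07). The falls were 2.56-fold for miR-99a (adjusted p = 4.2e-06) and 2.28-fold for miR-125b-5p (adjusted p = 0.0047). In all 4 members fell and none rose, against 36.1% of all probes lower, with a median of -1.53 (-0.29 over all probes). When the 114 probes above the floor in all 12 livers were fitted alone, 91 fell, with a median of -1.32. After centring 2 members fell, against 16.3% of all probes, and these were miR-99b (-1.30 ± 0.18, adjusted p = 0.00027) and miR-125a-5p (-1.32 ± 0.18, adjusted p = 0.00033). The centred values of miR-99a and miR-125b-5p turned to 0.12 and 0.29 and were not called (adjusted p = 0.41 and 0.35). The falls of miR-99b and miR-125a-5p were called on either scale also when each of the 12 livers was left out in turn (adjusted p up to 0.0022).

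The fit over 12 livers did not call postnatal changes of miR-100, because its e15.5 livers, part at the floor, widen the spread that all ages share (SE of 1.98). In a fit of the 2 ages alone miR-100 fell from 3 to 7 weeks by 1.49 on the log2 scale (adjusted p = 0.002) and from 2 to 7 weeks by 1.70 (adjusted p = 0.0029). Both were called too on log2(linear + 1), with values of -1.48 and -1.69 (adjusted p = 0.00056 and 0.00016), and without e15.5 mouse 1 (adjusted p = 0.00034 and 0.00012). The fit without e15.5 mouse 1 is no separate support, since the e15.5 values left are equal floor values that narrow the shared spread. After centring the 7-week livers overlapped with the 2-week and the 3-week livers.

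**Figure D2:**
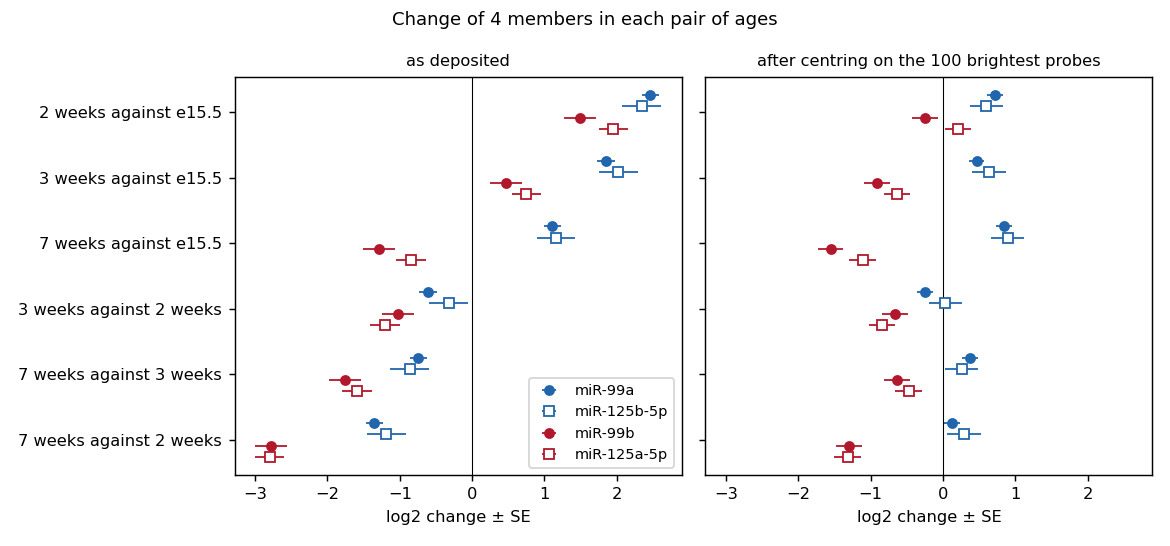
Log2 change ± SE from the limma fit (x axis) of miR-99a and miR-125b-5p (blue) and of miR-99b and miR-125a-5p of chromosome 17 (red) for the 6 pairs of ages (y axis), as deposited on the left and after centring on the right. In each pair the red symbols lie to the left of the blue ones. From 2 to 7 weeks the centred values are -1.30 and -1.32 for the red members and 0.12 and 0.29 for the blue ones.

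The question whether members sharing a seed or members sharing a locus moved together was put to differences between 2 probes in the same liver, which no scaling that adds a constant to a liver's log2 values can move. For 22 pairs (15 of members and 7 of a member with the let-7 of its cluster) the difference was compared over the ages by an exact permutation test of the F statistic, two-sided, with p-values adjusted over the 22 pairs. With 12 livers the smallest p it can give is 6.5e-05. Pairs share members and are not independent of each other. Probes are said to move apart where their difference changed over the ages, whether it widened or narrowed.

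Members with the same seed on different chromosomes moved apart. The difference miR-99a minus miR-99b was 0.57 ± 0.41 (log2, SD, n = 3) at e15.5, and then 1.54 ± 0.15, 1.95 ± 0.25 and 2.97 ± 0.31 at 2, 3 and 7 weeks (exact permutation p = 0.00013, adjusted p = 0.0014). The 7-week livers lay above all others and the e15.5 livers below all others, so that from e15.5 to 7 weeks the ratio of miR-99a to miR-99b rose by 2.39 on the log2 scale. The difference miR-125b-5p minus miR-125a-5p was -0.74 ± 0.36, -0.35 ± 0.27, 0.53 ± 0.18 and 1.26 ± 0.34 at the same ages (exact permutation p = 0.00019, adjusted p = 0.0014). In each family the member from chromosome 17 lost ground to the member from the other loci, by 1.43 and 1.61 on the log2 scale from 2 to 7 weeks. Over the 3 postnatal ages alone, the adjusted p of these exact tests was 0.017 and 0.0098.

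With different seeds and a shared locus, miR-99b and miR-125a-5p were not shown to move apart. Nor were miR-99a and miR-125b-5p, which share the cluster on chromosome 16 only in part, since the miR-125b-5p probe also reads chromosome 9. The difference miR-99b minus miR-125a-5p was -2.93 ± 0.37 (log2, SD, n = 3) at e15.5, and then -3.39 ± 0.15, -3.21 ± 0.15 and -3.38 ± 0.52 at 2, 3 and 7 weeks (exact permutation p = 0.38, adjusted p = 0.42). Its change from 2 to 7 weeks was 0.02, and lay between -0.27 and 0.24 when each liver was left out in turn. The difference miR-99a minus miR-125b-5p was -1.62 ± 0.38, -1.51 ± 0.28, -1.79 ± 0.28 and -1.68 ± 0.05 (exact permutation p = 0.66, adjusted p = 0.66). In both pairs every age overlapped with every other. After quantile normalisation, which does not add a constant, both pairs were called (exact permutation test, adjusted p = 0.035 and 0.036). The cross pairs with neither seed nor locus in common differed over the ages, miR-99a from miR-125a-5p with an exact p of 6.5e-05, the smallest possible (adjusted p = 0.0014), and miR-125b-5p from miR-99b with an adjusted p of 0.0025 (exact permutation test).

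For miR-100 only the 9 postnatal livers were used. It moved apart from miR-99b and miR-125a-5p (exact permutation test, adjusted p = 0.021 and 0.017), its difference from miR-125a-5p going from -3.72 ± 0.09 (log2, SD, n = 3) at 2 weeks to -2.73 ± 0.07 at 3 weeks and -2.62 ± 0.12 at 7 weeks. The call against miR-99b was lost without 2-week mouse 3, 3-week mouse 1 or 7-week mouse 3 (adjusted p up to 0.088). It also differed over the ages from miR-99a, its relative by 1 base, with miR-99a minus miR-100 at 1.87 ± 0.14, 1.47 ± 0.07 and 2.21 ± 0.26 (exact permutation test, adjusted p = 0.0079). Against miR-125b-5p the adjusted exact p was 0.079, and 0.044 without 2-week mouse 1.

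**Figure D3:**
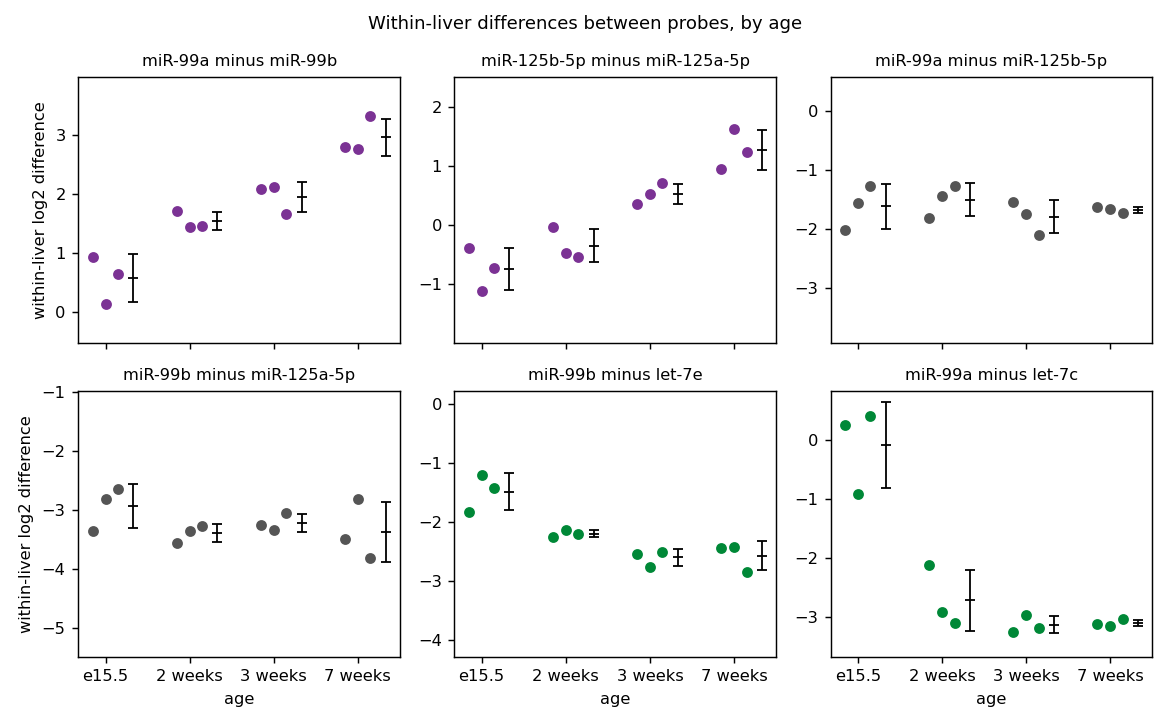
Within-liver difference of log2 values (y axis, each panel spanning the same range) for 6 pairs of probes in each liver (points), with mean ± SD (n = 3) beside them, at the 4 ages (x axis). The pairs with the same seed on different chromosomes (purple) climb from 0.57 to 2.97 and from -0.74 to 1.26. The pairs that share a cluster (grey) stay between means of -1.79 and -1.51 and of -3.39 and -2.93. In the first of these the miR-125b-5p probe also reads chromosome 9. The differences from the let-7 of the cluster (green) drop after e15.5.

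Each member was also set against the let-7 miRNA of its cluster. On chromosome 17 miR-99b minus let-7e was -1.49 ± 0.32 (log2, SD, n = 3) at e15.5, and then -2.20 ± 0.06, -2.60 ± 0.14 and -2.57 ± 0.24 at 2, 3 and 7 weeks (exact permutation test, adjusted p = 0.0054), so that let-7e gained on miR-99b between e15.5 and the postnatal ages. After quantile normalisation that call was lost (exact permutation test, adjusted p = 0.45). The difference miR-125a-5p minus let-7e was 1.44 ± 0.20, 1.19 ± 0.12, 0.61 ± 0.09 and 0.81 ± 0.36 (adjusted p = 0.012, exact). Among the postnatal ages alone neither was called (exact permutation test, adjusted p = 0.093 each). On chromosome 16 miR-99a minus let-7c stood at -0.082 ± 0.72 in the e15.5 livers, and then at -2.71 ± 0.52, -3.12 ± 0.15 and -3.09 ± 0.05 at 2, 3 and 7 weeks (exact permutation test, adjusted p = 0.0078, and 0.21 over the postnatal ages). For miR-125b-5p the adjusted exact p was 0.023 against let-7c and 0.19 against let-7a (0.026 without 2-week mouse 1), and for miR-100 against let-7a it was 0.43. The 2 let-7 probes there also read genes outside the clusters. From 2 to 7 weeks let-7e fell by 2.41 (adjusted p = 4.1e-08, limma, deposited values), let-7a fell by 1.36 and let-7c fell by 0.97, and only let-7e of these 3 was lower after centring (-0.93, adjusted p = 8.2e-06). Of the 9 probes of the let-7 family with miR-98, 9 fell from 2 to 7 weeks as deposited (36.1% of all probes) and 3 after centring (16.3%).

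The arms of miR-125a did not change in parallel over the ages. The hairpin, from chromosome 17 (GRCm38.p6, 17830812 to 17830879, plus strand), is shown with the 5p and the 3p arm in capitals because both products were measured.
Mir125a: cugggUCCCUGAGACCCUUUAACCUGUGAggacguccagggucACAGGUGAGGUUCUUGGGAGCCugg
In the 10 livers where both arms were above the floor, miR-125a-5p minus miR-125a-3p was 5.28 ± 0.79 (log2, SD, n = 2) in the e15.5 livers, 6.34 ± 0.12 (n = 3) at 2 weeks, 5.0 ± 0.80 (n = 2) at 3 weeks, and only 2.38 ± 0.85 (n = 3) by 7 weeks. The difference varied over the ages (exact permutation p = 0.0032, adjusted p = 0.0078) and, on the log2 scale, changed by -3.95 from 2 to 7 weeks. The difference miR-99b minus miR-125a-3p likewise went from 2.94 ± 0.04 at 2 weeks to -0.99 ± 0.34 at 7 weeks (exact permutation test, adjusted p = 0.0078). The 3p arm thus changed in parallel with neither miR-99b nor its own 5p arm. While the 5p arm fell 6.96-fold from 2 to 7 weeks, the change of the 3p arm was 1.15 on the log2 scale, which the fit over 12 livers did not call (adjusted p = 0.97, with 2 livers at the floor) and a fit of the 2 ages alone did (adjusted p = 0.04). The 3p arm was dim, with a linear value of 58.4 ± 4.75 (SD, n = 3) at 2 weeks and 136 ± 52.7 at 7 weeks. Of 24 other probes within 1 log2 unit of it at 2 weeks and above the floor in all 6 livers, 4 had a value higher at 7 weeks, the median change was -0.83 and none exceeded the change of miR-125a-3p. The probes that did exceed it, miR-184, miR-455 and miR-714 (1.53, 1.87 and 3.22), were dimmer than that window. Their mean log2 values at 2 weeks were 2.50, 1.68 and 3.77. The number of probes at the floor was 146 to 163 in the 2-week livers and 107 to 182 in the 7-week livers, and the part of background subtraction in the level of the 3p arm was not tested.

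Among the 143 probes above the floor in all 2-week and 7-week livers, the median change was -1.26, and miR-125a-5p and miR-99b had the seventh and ninth lowest change. Their cluster partner let-7e ranked 16 from the lowest. The other loci lay near the middle, with miR-100 at rank 52, miR-99a at 65 and miR-125b-5p at 77, and miR-125a-3p ranked 4 from the highest.

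**Figure D4:**
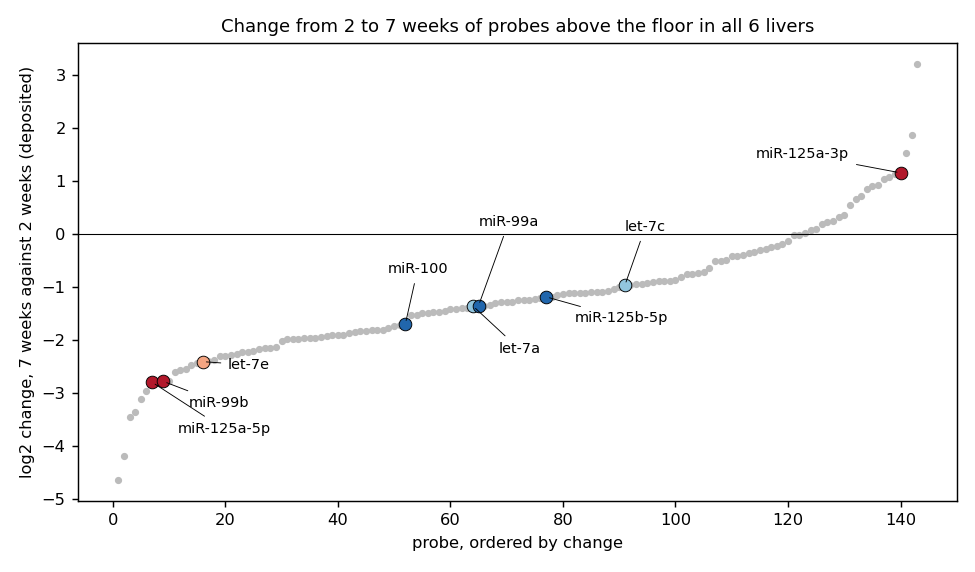
Deposited log2 change from 2 to 7 weeks (y axis) of the 143 probes above the floor in all 6 livers, in order of change (x axis), with chromosome 17 members in red, let-7e in orange, members of chromosomes 9 and 16 in dark blue and let-7a and let-7c in light blue. The probes miR-125a-5p and miR-99b lie near the lower end at -2.80 and -2.78, miR-125a-3p near the upper end at 1.15, and the other members between -1.70 and -1.19.

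Likeness between probes was measured as the SD over livers of the within-liver difference, a small SD meaning that 2 probes moved in parallel. It was computed against the 110 other probes measured above the floor in every liver, and is a description without a test. The probes most like miR-99a were the endothelial miR-126-3p (SD 0.25), miR-28 (0.27) and miR-188-5p (0.28), where the median probe had 0.83. For miR-125b-5p they were miR-190b (0.20), miR-1955 (0.25) and miR-1935 (0.31), against a median of 0.84. For miR-100, over 9 postnatal livers, they were the smooth muscle miR-145 (0.17), miR-126-3p (0.18) and miR-15b (0.18), against a median of 0.41.

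For miR-99b the nearest probes were the mesenchymal miR-199a-5p (0.35) and miR-199a-3p (0.36) and then miR-532-5p (0.37), against a median of 1.12. For miR-125a-5p they were miR-181a (0.28), miR-199a-3p (0.32) and let-7i (0.34), against a median of 1.07. With members counted in, miR-125a-5p was the nearest of all 113 probes to miR-99b (0.34), and let-7e ranked 10 (0.50), while miR-99a, which has the same seed, ranked 35 (0.93). Conversely miR-125b-5p ranked 2 for miR-99a (0.26), and miR-99b ranked 63. Over the 9 postnatal livers alone, among 128 probes, let-7e ranked 2, miR-125a-5p ranked 4 and miR-99a ranked 52 for miR-99b, while miR-125b-5p ranked 8 and miR-99b ranked 99 for miR-99a. The nearest probe to miR-125a-3p, miR-2132, was farther off (0.62, over 10 livers).

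The 2 probes outside the families nearest to miR-99b belong to the mesenchymal and stellate list. Of its 5 probes in the table (1 more is not in it) 4 fell from 2 to 7 weeks as deposited. Falls were called for 36.1% of all probes, and for 91 of the 114 above the floor in all livers, fitted alone. After centring 2 of the 5 fell (16.3% of all probes). Against e15.5, 2 were higher and 2 lower at 7 weeks. Its summed linear level lay between 1327 and 1721 in e15.5 livers, between 5550 and 6671 at 2 weeks, between 3766 and 4814 at 3 weeks, and between 1427 and 1712 at 7 weeks, with miR-214 at the floor in all 3-week livers and no member of the list at the floor in all livers of another age. The endothelial list of 2 probes took 7.20 to 8.21% of the signal at 2 weeks and 4.31 to 4.70% at 7 weeks. The biliary and epithelial list (5 probes) had a summed level of 1640 to 1797 at 2 weeks and 137.9 to 173 at 7 weeks. In it miR-141 was at the floor in every liver of e15.5, 2 weeks and 7 weeks, and miR-429 in every 7-week liver. The part of these cell types in the fall of miR-99b and miR-125a-5p was not tested.

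The relative miR-10a, which lies in the Hoxb cluster on chromosome 11, was 4.29, 4.93 and 4.44 at e15.5, and between 6.96 and 8.85 in the postnatal livers. It rose by 3.87 ± 0.23 on the log2 scale from e15.5 to 2 weeks (limma, adjusted p = 1.5e-07) and by 2.13 after centring (adjusted p = 6.7e-06). Between 2 and 7 weeks its deposited level fell by 1.35 (adjusted p = 0.00064) and its centred change was 0.13 (adjusted p = 0.66). The miR-670 probe, named for a miRNA whose listed 5p arm has the seed UCCCUGA, was at the floor in 9 of 12 livers.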

How the data were processed

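Total RNA was extracted with Trizol from 12 livers and hybridised to the nanoString mouse miRNA assay, per the labels. The values are log2 signals as the authors deposited them, made with Partek 6.6 per the submitters' processing notes; the background subtraction and scaling are not given in the sources used here. No raw counts were used, so depth is unknown and the number of livers limits the precision.

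All 355 probes were fitted with limma 3.58.1 in R 4.3.3 (1 mean per age, eBayes with trend), with Benjamini-Hochberg adjustment over the probes per pair of ages and a threshold of 0.05. Each mouse counted as 1 replicate. Within-liver differences were tested by exact permutation over the livers with both probes above the floor, and for miR-100 the postnatal ones; this restriction of the planned 12 livers was chosen after seeing the data. The fit was tested on simulated data. Named miRNAs were the members, their let-7 partners, relatives by seed, miR-10a and 3 nearest probes per member. The members and lists were chosen with earlier results of these data known. Mature sequences are from RefSeq. Of the relatives, miR-351 and miR-10b were not analysed here.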

Additional observations from a re-analysis of the deposited data

How the results depend on the processing

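On the deposited values, the count of called members per pair of ages moved by more than 1.5 times under the scalings below and under none of the other alternatives run. For 2 weeks against e15.5 it went from 5 to 3 after centring on the 100 brightest probes and to 2 after centring on the median of probes measured in all livers. For 3 against 2 weeks it went from 3 to 1 after median centring and to 1 after quantile normalisation. For 7 against 3 weeks it went from 4 to 2, 1 and 1 under these 3 scalings, and for 7 against 2 weeks from 4 to 2, 2 and 2. After centring on the 100 brightest probes, the counts for 3 against 2 weeks and for 7 against 3 weeks (2 each) lay between 0 and 2 when a liver was left out.

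Signs turned as follows, with values in the order of the 3 scalings. From e15.5 to 2 weeks miR-99b went to -0.25 and -0.28. From e15.5 to 3 weeks miR-99b went to -0.92 and -0.88, miR-125a-5p to -0.64, -0.60 and -0.60, and miR-125a-3p to -0.62 and -0.58. From 2 to 3 weeks miR-100 went to 0.15, 0.22 and 0.29, and miR-125b-5p to 0.034 and 0.098. From 3 to 7 weeks miR-99a went to 0.37, 0.32 and 0.40, and miR-125b-5p to 0.26, 0.21 and 0.20. From 2 to 7 weeks miR-99a went to 0.12, 0.14 and 0.15, and miR-125b-5p to 0.29, 0.30 and 0.20. These scalings remove a shift shared by the bright probes. Which scaling reflects RNA per liver was not tested.

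Leaving out a liver turned the change of miR-125a-3p, which has 2 livers at the floor: it ranged from -4.20 to 6.11 for 3 weeks against e15.5 and from -8.13 to 0.20 for 3 against 2 weeks, and after centring from -0.79 to 6.78 (2 weeks against e15.5), from -5.57 to 4.67 (3 weeks against e15.5) and from -7.71 to 0.51 (3 against 2 weeks). The centred change of miR-125b-5p from 2 to 3 weeks ranged from -0.11 to 0.23. Among within-liver differences, the change from 2 to 7 weeks ranged from -0.27 to 0.24 for miR-99b minus miR-125a-5p, from -0.53 to 0.23 for miR-125b-5p minus let-7c and from -0.078 to 0.50 for miR-125b-5p minus let-7a. Quantile normalisation turned that change to 0.044 for miR-99a minus let-7c, 0.095 for miR-125b-5p minus let-7c, 0.22 for miR-100 minus let-7a and 0.14 for miR-99b minus let-7e. With variances fitted without a trend, miR-125b-5p was not called for 7 against 3 weeks (adjusted p = 0.062).

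The mouse numbers did not pair the livers: of 18 pairs of livers with the same number, 7 had deviations from the age means that correlated above 0.1 (median 0.03, against 0.01 for other numbers), and 3 of 12 livers correlated best with their own number. With the mouse number as a block, the counts after centring went from 2 to 1 for 3 against 2 weeks and from 2 to 1 for 7 against 3 weeks, and the other counts stayed within 1.5 times.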

Other observations

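Of the 22 within-liver differences, 17 were called over the ages tested (for miR-100 the 3 postnatal ages, otherwise all 4), and 13 when every pair was tested over the postnatal ages alone (exact permutation test, adjusted p below the threshold of 0.05), where the smallest p with 9 livers is 0.0036. Among its let-7 partners and the other members, the probe most like miR-100 was let-7a (SD of the within-liver difference 0.31 over 9 livers), and miR-10a was nearer (0.23, rank 11 of 114).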
